A study of Mus musculus with 24 samples.

Results

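The livers described here came from wild-type (WT) male mice of strain C57BL6 (C57BL/6J in the methods) that had free access to either chow or a high-fat diet (HFD) for 10 weeks. All arrays labelled as WT liver were taken, 6 from chow-fed and 6 from HFD-fed mice, so that 12 of the 24 arrays of the series entered the comparison and the other 12 were the matching Ogg1-/- livers, 6 on each diet. Per the labels, the mice of every group were 10 weeks old at the start (the methods give a later age), were male and were housed singly, and each array held total liver RNA of 1 mouse. The series was made to ask how loss of OGG1, the DNA glycosylase that removes 8-oxoguanine from DNA, alters the response to a HFD. The question asked here is how gene expression differed between the HFD and chow in the livers with intact *Ogg1*. The methods give the fat, protein and carbohydrate content of the HFD but no composition for the chow. Effects of fat and of other diet components therefore cannot be told apart. Neither the hour of tissue collection nor the hours since the last meal was stated for the arrays.

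The liver takes up dietary fat, stores it as triglyceride in lipid droplets, oxidizes it in mitochondria and peroxisomes and exports it in lipoproteins. Several nuclear receptors set the genes for these tasks: PPAR-alpha drives fatty acid oxidation, PPAR-gamma drives storage in the fatty liver, and CAR and PXR drive the cytochrome P450 enzymes that clear drugs and steroids. Many hepatic genes also differ between males and females under the control of growth hormone pulses, and many follow the time of day through the circadian clock and feeding.

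Expression was measured as a log2 value for each of 35556 probe sets on a whole-gene array, and 21789 probe sets carried a single gene symbol. Each gene is described by its brightest such probe set, which left 19938 genes. The hepatocyte markers albumin, *Apoa1*, *Ttr* and others stood at a mean log2 value of 13.39 to 13.49 over 9 genes in the chow livers and of 13.27 to 13.46 in the HFD livers, which matched the labelled tissue. The mean levels of the marker lists of adipocytes, pancreas and gut, and red blood cells lay between 5.31 and 7.43 in all 12 livers. No pair of WT arrays was identical, and their correlations ran from 0.979 to 0.993. The median log2 difference between the diets over all genes was 0.04, so differences are read against that value. Of the 19938 genes 62% stood above 0, and counts of list members above or below 0 are read against that share.

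At an adjusted p under 0.05 and a fold of at least 1.5, 137 probe sets differed between HFD and chow in WT livers, 73 higher and 64 lower, which is 0.385% of all probe sets. Of these, 59 differed at least 2-fold and 8 at least 4-fold. The 6 HFD values did not overlap the 6 chow values for 101 of the 137, against 2.25% of all probe sets. By the brightest probe set of each gene, 103 genes were called, 63 higher and 40 lower. Of the 137 called probe sets, 31 carried several symbols or none and are not named. Leaving out chow replicate 4 lowered the count to 85, leaving out chow replicate 6 to 88 and leaving out HFD replicate 5 to 91, whereas without HFD replicate 2 it was 172. The labels of all 6 chow arrays and of HFD replicate 5 carried the ending fr, and those of the other 5 HFD arrays the ending f, for a reason not given. A fit with this ending as a covariate compares HFD replicate 5 alone with the 6 chow arrays, and it called 57 probe sets higher and 10 lower. Such a fit, with 1 array on the HFD side, says little about either the diet or the ending. All 12 Ogg1-/- arrays carried the ending f on both diets, so the diet comparison in those livers, given at the end, does not involve it.

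**Figure D1:**
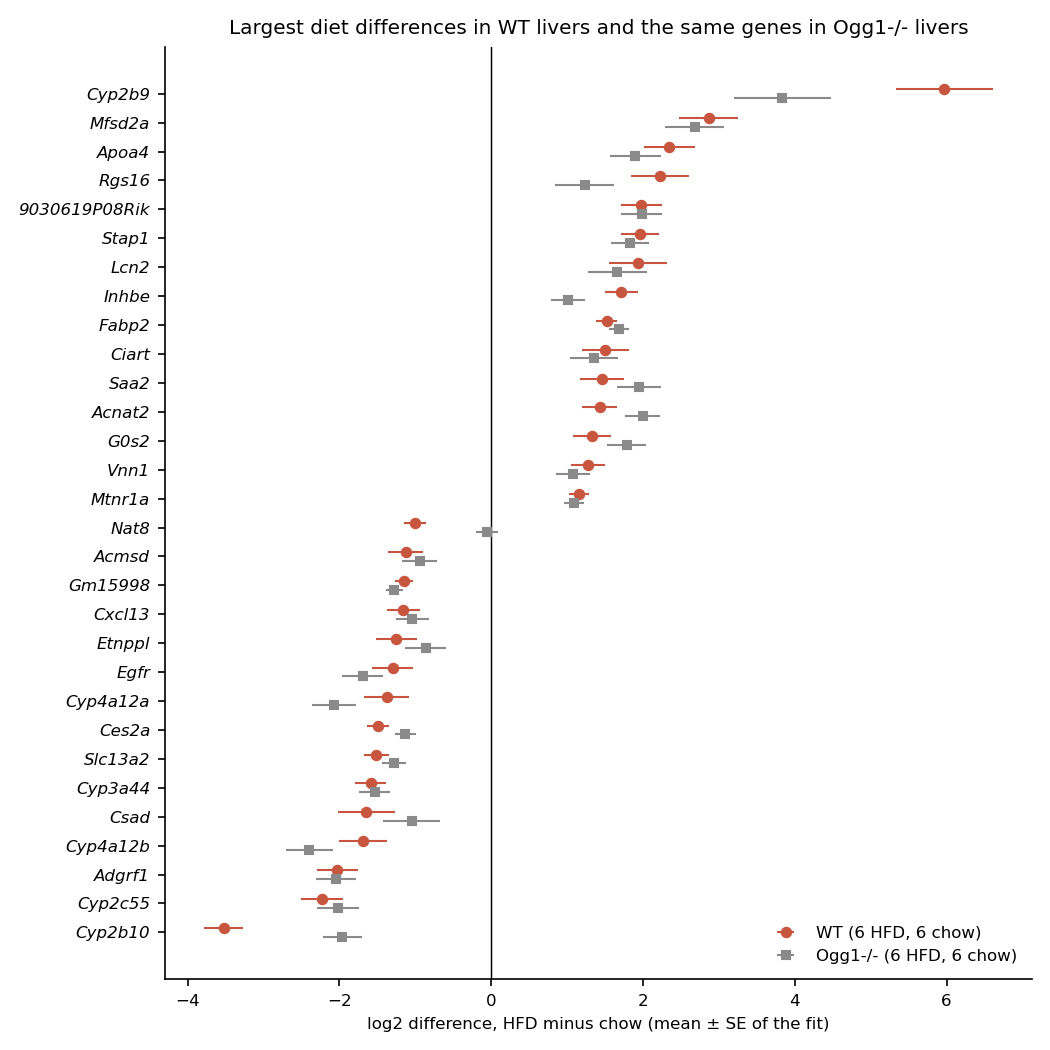
The 15 largest rises and the 15 largest falls on the HFD among called genes whose WT groups did not overlap, as the log2 difference HFD minus chow (x axis) with the standard error of the fit. Red circles are WT livers and grey squares the same genes in Ogg1-/- livers, which share no array with WT; *Cyp2b9* reached 5.97 and *Cyp2b10* -3.53 in WT, and *Nat8* stood at -0.06 in Ogg1-/- livers.

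The largest changes of all lay within a single family of cytochrome P450 genes, and they ran in opposite directions. *Cyp2b9*, a P450 gene known for its expression in female liver, ranged from 5.07 to 7.40 with a median of 5.95 on chow and from 10.76 to 13.28 with a median of 11.87 on the HFD. The groups lay far apart, and the rise was 62.7-fold (log2 difference 5.97 ± 0.63 SE, adjusted p = 1.07e-05). *Cyp2b10*, the P450 gene used as the standard readout of CAR activity, ranged from 9.57 to 10.67 with a median of 9.95 on chow and from 6.12 to 7.09 with a median of 6.46 on the HFD. It was thus 11.5-fold lower (log2 difference -3.53 ± 0.26 SE, adjusted p = 3.71e-08), again without overlap. *Cyp2b13* ranged from 3.46 to 4.15 on chow and from 3.76 to 8.43 on the HFD, where replicate 1 stayed within the chow range and the other 5 livers were above it. Its log2 difference was 2.09 ± 0.48 SE (adjusted p = 0.0346). The chow values lay below a log2 value of 5, where probe sets are dim, so the size of this difference is uncertain. The call was lost in 10 of the 12 fits that left out 1 array. The genes of this family are close in sequence, so probes may be shared among them, and their values are uncertain to that extent.

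The promoters of these genes are printed because *Cyp2b9* and *Cyp2b13* rose while *Cyp2b10* fell. The sequences are the 250 bases before the RefSeq start of each gene on mouse build GRCm38.p6, at chr7:26173159-26173408 for *Cyp2b9*, chr7:26061245-26061494 for *Cyp2b13* and chr7:25897408-25897657 for *Cyp2b10*, all on the plus strand. Capitals mark AGGTCA, the core to which many nuclear receptors bind, searched on both strands.
Cyp2b9: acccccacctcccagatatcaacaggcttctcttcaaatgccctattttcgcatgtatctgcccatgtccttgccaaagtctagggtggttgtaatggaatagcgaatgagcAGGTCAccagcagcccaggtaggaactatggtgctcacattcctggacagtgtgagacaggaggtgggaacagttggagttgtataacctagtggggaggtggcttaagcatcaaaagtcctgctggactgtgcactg
Cyp2b13: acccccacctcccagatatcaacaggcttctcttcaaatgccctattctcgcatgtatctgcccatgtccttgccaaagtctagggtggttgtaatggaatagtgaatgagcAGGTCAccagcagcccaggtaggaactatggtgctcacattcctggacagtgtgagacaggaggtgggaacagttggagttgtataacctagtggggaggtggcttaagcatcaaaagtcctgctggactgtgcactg
Cyp2b10: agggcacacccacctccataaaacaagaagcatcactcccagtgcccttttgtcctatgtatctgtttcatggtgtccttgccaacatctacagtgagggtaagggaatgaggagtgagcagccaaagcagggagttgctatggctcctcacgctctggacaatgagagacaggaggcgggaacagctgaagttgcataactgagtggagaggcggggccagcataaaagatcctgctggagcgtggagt
The promoters of *Cyp2b9* and *Cyp2b13* were identical at 248 of 250 bases (99.2%), with the motif starting 138 bases before the start in both. That of *Cyp2b10* aligned to each of them at 71.4% identity and held no AGGTCA in this window. The motif is common, with a match in 14% of the 32851 promoter windows of this length, and a match is only a description of the sequence.

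Of 23 measured targets and receptors of CAR and PXR, 2 rose and 6 fell at an adjusted p under 0.05, where 0.742% of all genes rose and 0.371% fell. Apart from *Cyp2b9* and *Cyp2b13*, then, the members that passed were lower on the HFD, and the median log2 difference of the list was -0.41. *Cyp2c55*, a CAR-inducible P450 gene, fell from a range of 7.55 to 8.10 (median 7.83) on chow to one of 5.34 to 6.05 (median 5.50), a log2 difference of -2.23 ± 0.27 SE (adjusted p = 8.17e-05). *Ces2a*, a carboxylesterase that hydrolyses drugs and lipids, ranged from 10.54 to 10.97 on chow and from 8.70 to 9.58 on the HFD (log2 difference -1.49 ± 0.14 SE, adjusted p = 2.78e-06). In both genes every HFD liver was below every chow liver. *Cyp3a44* (-1.59 ± 0.20 SE), *Cyp3a11* (-0.998 ± 0.16 SE) and *Cyp2c29* (-0.57 ± 0.09 SE) also fell without overlap, *Cyp3a11* being the main PXR-inducible P450 gene of mouse liver. The platform assigns some other probe sets to *Cyp3a44* and *Cyp3a11* together, so the falls of these genes may not be independent. The receptors themselves did not pass the test: *Nr1i3*, which encodes CAR, differed by 0.46 and *Nr1i2*, which encodes PXR, by less than 0.01 on the log2 scale. The 6 falls were found in every fit that left out 1 array.

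**Figure D2:**
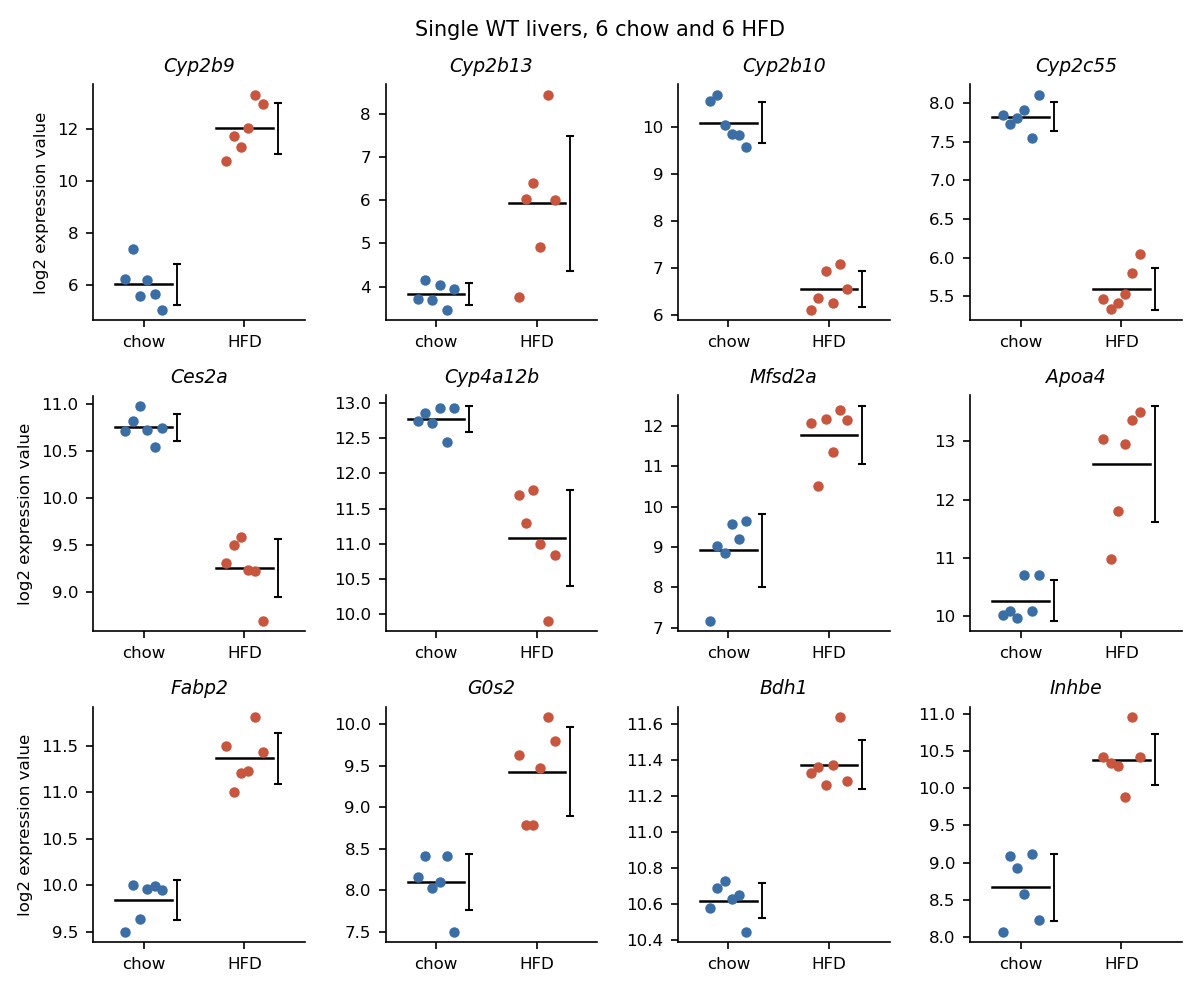
Log2 expression values (y axis) of 12 genes in single WT livers, 6 on chow (blue) and 6 on the HFD (red); the horizontal line is the group mean and the bar beside it the SD. The groups are separate in all panels but *Cyp2b13*, where HFD replicate 1 lies among the chow livers.

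Several genes that differ between male and female liver changed on the HFD. Of 25 measured male-biased genes 5 fell and none rose, with a list median of -0.65 and 21 of 25 below 0. *Cyp4a12b*, an androgen-dependent P450 gene, ranged from 12.45 to 12.93 with a median of 12.81 on chow and from 9.91 to 11.76 with a median of 11.15 on the HFD (log2 difference -1.69 ± 0.31 SE, adjusted p = 0.00738). Its near-identical neighbor *Cyp4a12a* differed by -1.38 ± 0.30 SE (adjusted p = 0.0224), and the 2 probe sets may not be independent. *Egfr*, the receptor of epidermal growth factor, ranged from 11.29 to 12.16 on chow and from 9.53 to 10.94 on the HFD (-1.30 ± 0.27 SE, adjusted p = 0.0175). *Nat8f5* (-0.89 ± 0.22 SE) and *Elovl3*, a fatty acid elongase (-0.66 ± 0.15 SE), completed the list of falls, all without overlap. *Cyp4a12b* kept its call in every fit that left out 1 array. The other falls did not: *Cyp4a12a* and *Egfr* lost it in 3 of 12 fits, *Nat8f5* in 10 and *Elovl3* in 11, and only *Cyp4a12b* passed without chow replicate 6.

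*Hsd3b5*, a steroid dehydrogenase of male liver, did not pass the test (adjusted p = 0.219), and its HFD livers were spread widely. It ranged from 11.85 to 12.10 on chow, and on the HFD it stood at 10.39, 12.34, 11.63, 9.85, 6.38 and 5.59 in replicates 1 to 6. Replicate 2 was therefore above every chow liver, while replicates 5 and 6 were lower by more than 5 on the log2 scale.

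Of 22 measured female-biased genes 5 rose and 1 fell, with a median of 0.17. Beside *Cyp2b9* and *Cyp2b13* these were *Cyp17a1*, *Gpc1* and *Rtn4*, and the fall was *Cyp3a44*, which may share probes with *Cyp3a11*. *Gpc1*, which encodes the proteoglycan glypican, ranged from 6.81 to 7.39 on chow and from 7.75 to 8.62 on the HFD (log2 difference 1.11 ± 0.14 SE, adjusted p = 1.24e-04) and kept its call in every fit. *Cyp17a1*, a steroid hydroxylase, ranged from 6.999 to 8.92 on chow and from 8.15 to 10.74 on the HFD, where replicates 2 and 3 overlapped the chow livers (1.96 ± 0.42 SE, adjusted p = 0.0222). *Cyp17a1* lost its call in 8 of the 12 fits that left out 1 array and *Rtn4* in 10.

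Several genes for handling fat rose, but few members of each list passed the test. *Mfsd2a*, a transporter of lysophospholipids, ranged from 7.18 to 9.65 with a median of 9.12 on chow and from 10.52 to 12.40 with a median of 12.11 on the HFD, a 7.28-fold rise (log2 difference 2.86 ± 0.39 SE, adjusted p = 2.45e-04). *Apoa4*, an apolipoprotein of triglyceride-rich particles, ranged from 9.97 to 10.71 with a median of 10.09 on chow and from 10.98 to 13.50 with a median of 13.001 on the HFD, a 5.09-fold rise (2.35 ± 0.33 SE, adjusted p = 4.19e-04). *Fabp2*, which encodes a cytosolic fatty acid binding protein best known from the intestine, ranged from 9.50 to 10.004 on chow and from 11.01 to 11.80 on the HFD, a 2.87-fold rise (1.52 ± 0.13 SE, adjusted p = 9.41e-07). None of these overlapped between the diets. *Fabp2* is also 1 of the 12 pancreas and gut markers, of which the other 11 differed by -0.09 to 0.22.

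Of 18 lipid droplet genes 3 rose, none fell, and 17 differences were above 0 with a median of 0.20. *G0s2*, an inhibitor of the main triglyceride lipase, ranged from 7.50 to 8.41 on chow and from 8.79 to 10.08 on the HFD (log2 difference 1.33 ± 0.25 SE, adjusted p = 0.00987). *Mgll*, the monoacylglycerol lipase, ranged from 9.87 to 10.50 on chow and from 10.76 to 11.40 on the HFD (0.86 ± 0.14 SE, adjusted p = 0.00148). *Fitm2*, needed for droplets to bud from the endoplasmic reticulum, rose by 0.44 ± 0.10 SE. Among genes of triglyceride synthesis, 1 of 13 passed: *Gpat3*, an acyltransferase, rose by 0.61 ± 0.14 SE. Without HFD replicate 3, 5 and, with HFD replicates 2 and 3 left out together, 7 lipid droplet genes passed rather than 3. *Fitm2* lost its call in 6 of the 12 fits that left out 1 array and *Gpat3* in 7.

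All 9 measured genes of the PPAR-gamma list, the receptor and its steatosis targets, stood above 0 with a median of 0.63, but *Apoa4* alone passed. Without HFD replicate 2, 4 of them passed, without HFD replicate 3, 3 did, and with both left out 8 did, with a median of 0.98. The large differences that did not pass were those of *Cidec*, which fuses lipid droplets (1.66 ± 0.46 SE, adjusted p = 0.0912), and *Mogat1*, a monoacylglycerol acyltransferase (1.15 ± 0.34 SE, adjusted p = 0.119). *Cidec* ranged from 6.27 to 7.07 in the chow livers and stood at 8.73, 6.59, 6.92, 7.98, 10.11 and 9.47 in HFD replicates 1 to 6. HFD replicates 2 and 3 thus lay within the chow range and the other 4 above it. The adipocyte marker *Fabp4* differed by 0.62 ± 0.15 SE (adjusted p = 0.0559), while *Adipoq*, which defines adipocytes, differed by 0.03 and lay near the bottom of the scale with a chow mean of 4.2. In whole liver, more cells of a type and more RNA per cell cannot be told apart.

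Oxidation genes moved by little. Of 17 genes of mitochondrial fatty acid oxidation 3 rose and 16 stood above 0, with a median of 0.17. *Decr1*, the reductase for unsaturated fatty acids, rose by 0.31 ± 0.06 SE (adjusted p = 0.0137), *Eci1* by 0.32 ± 0.07 SE and *Hadh* by 0.27 ± 0.06 SE, all without overlap and all by less than 1.5-fold. *Eci1* and *Hadh* lost their calls in 8 and 7 of the 12 fits that left out 1 array. *Bdh1*, the mitochondrial enzyme that makes beta-hydroxybutyrate, was the steadiest gene of this kind. It ranged from 10.45 to 10.73 on chow and from 11.26 to 11.64 on the HFD (log2 difference 0.75 ± 0.08 SE, adjusted p = 4.85e-06). Of 22 PPAR-alpha genes 2 rose: *Vnn1*, the pantetheinase (1.27 ± 0.22 SE, adjusted p = 0.00478), and *Acot4*, a peroxisomal thioesterase (0.92 ± 0.22 SE, adjusted p = 0.0395, a call lost in 8 of the 12 fits). The classical targets *Cyp4a10*, *Cyp4a14* and *Pdk4* differed by -0.21, -0.18 and -0.48 and did not pass. None of the 21 genes on the list of peroxisomal oxidation and biogenesis, which does not hold *Acot4*, passed.

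Of the genes of de novo lipogenesis and cholesterol synthesis, 1 passed the test. Of 20 lipogenic genes only *Pklr*, the liver pyruvate kinase, passed, with a range of 10.73 to 11.39 on chow and of 11.28 to 12.10 on the HFD, where replicate 2 overlapped the chow livers (log2 difference 0.74 ± 0.15 SE, adjusted p = 0.0136). *Srebf1*, the master regulator of lipogenesis, differed by 0.56 ± 0.18 SE (adjusted p = 0.163) and its target *Fasn* by 0.19 ± 0.34 SE (adjusted p = 0.851). *Acaca* (-0.14 ± 0.25 SE) and *Scd1* (-0.36 ± 0.15 SE) did not pass either. With HFD replicates 2 and 3 left out together, 4 lipogenic genes rose and 1 fell, the median went from 0.11 to 0.44 and 17 of 20 stood above 0; without replicate 2 alone, 2 rose and 1 fell. None of 21 genes of cholesterol synthesis, uptake and sensing passed, although 20 of them stood below 0, with a median of -0.32. The sign of that median rested on HFD replicates 2 and 3. *Sqle*, the squalene epoxidase, ranged from 9.48 to 10.73 on chow and stood at 7.05 and 7.71 in HFD replicates 2 and 3. It ranged from 9.16 to 10.92 in the other 4, of which replicate 5, at 9.16, was also below every chow liver. With HFD replicates 2 and 3 left out the list median was 0.11, and 18 of 21 genes stood above 0.

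In the fit of all 24 arrays, genes of the circadian clock formed the list with the most members past the threshold. Of 14 measured genes whose daily peak is opposite to that of *Arntl*, 9 rose and none fell, with a median of 0.62, and *Arntl* itself fell. Of 4 measured genes with the phase of *Arntl*, it alone passed. *Clock* differed by -0.87 (adjusted p = 0.151 in the same fit), *Nfil3* by -0.15 and *Cry1* by -0.02. *Arntl*, which encodes the activator BMAL1, ranged from 7.36 to 8.23 with a median of 7.73 on chow and from 6.03 to 7.34 with a median of 6.84 on the HFD (log2 difference -0.98 ± 0.17 SE, adjusted p = 0.00504). *Dbp*, a transcription factor of clock output, ranged from 8.58 to 9.44 with a median of 9.07 on chow and from 9.72 to 10.43 with a median of 9.93 on the HFD (log2 difference 0.997 ± 0.16 SE, adjusted p = 0.00185). Neither gene overlapped between the diets. *Wee1*, the kinase that delays entry into mitosis and a direct clock target, ranged from 6.69 to 7.14 on chow and from 7.71 to 8.46 on the HFD (1.13 ± 0.12 SE, adjusted p = 1.49e-05). *Ciart*, a repressor of the clock activators, ranged from 5.83 to 7.16 on chow and from 7.21 to 8.78 on the HFD (1.51 ± 0.31 SE, adjusted p = 0.0173), so that the groups were just apart. A dimmer *Ciart* probe set gave a difference of 1.45 ± 0.25 SE.

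The other clock genes that rose were the repressors *Per2* (0.62 ± 0.12 SE) and *Per3* (0.70 ± 0.14 SE), the output factors *Tef* (0.49 ± 0.11 SE) and *Hlf* (0.39 ± 0.07 SE), the deubiquitinase *Usp2* (1.04 ± 0.25 SE) and the repressor *Bhlhe40* (0.67 ± 0.16 SE). *Per2*, *Per3*, *Tef* and *Hlf* did not overlap between the diets, whereas *Usp2* and *Bhlhe40* did. *Nr1d1* and *Nr1d2*, which encode the REV-ERB repressors and also peak opposite to *Arntl*, differed by -0.24 and -0.13 and did not pass. *Usp2* lost its call in 9 of the 12 fits that left out 1 array, *Bhlhe40* in 10, and *Ciart* and *Tef* in 3 each. Without chow replicate 1, 5 of the 14 genes passed, and with HFD replicates 2 and 3 left out together 3 passed, with a median of 0.43. In the 12 WT arrays alone 7 of the 14 passed, and with the methods' t-test 4 did. The CAR and PXR list had 2 rises and 8 falls in each of these settings, more than the clock list. Neither the hour of collection nor the meaning of the label ending, which nearly followed diet in WT, was stated. A difference in sampling time between the diet groups, an effect of diet on the clock and the ending therefore cannot be told apart.

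**Figure D3:**
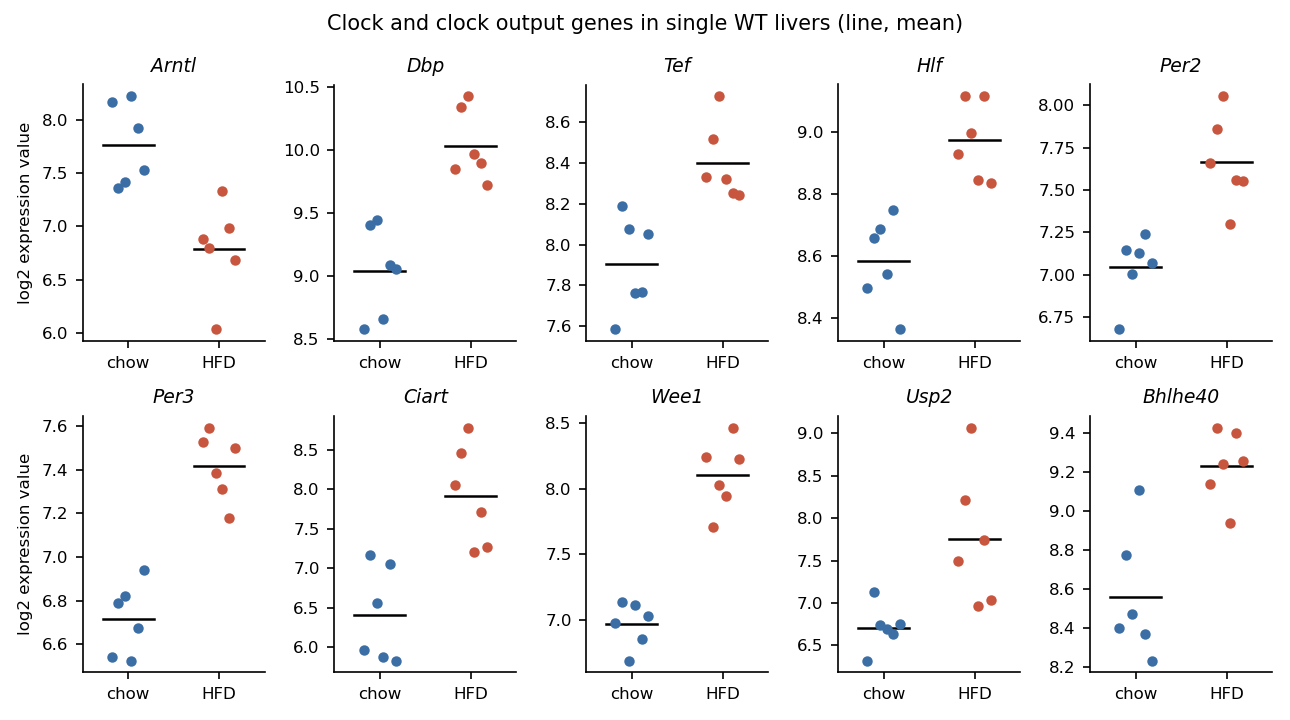
Log2 expression values (y axis) of *Arntl* and of the 9 clock and clock output genes that rose, in single WT livers on chow (blue) and the HFD (red); the line is the group mean. Every panel but those of *Usp2* and *Bhlhe40* shows groups without overlap.

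The promoters of *Ciart* and *Per3* are printed because they held repeated matches to the motifs through which clock factors act. They are the 250 bases before the RefSeq start on GRCm38.p6, at chr3:95882229-95882478 for *Ciart* and chr4:151044666-151044915 for *Per3*, both on the minus strand. Capitals mark the E-box CACGTG, bound by BMAL1 with CLOCK, in *Ciart* and the D-box TTANGTAA, bound by DBP, TEF and HLF, in *Per3*, with both strands searched.
Ciart: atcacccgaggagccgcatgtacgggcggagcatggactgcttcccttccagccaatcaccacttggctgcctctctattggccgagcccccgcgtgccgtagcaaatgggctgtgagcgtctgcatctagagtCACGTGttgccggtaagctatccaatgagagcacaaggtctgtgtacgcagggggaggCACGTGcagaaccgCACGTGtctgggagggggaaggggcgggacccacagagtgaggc
Per3: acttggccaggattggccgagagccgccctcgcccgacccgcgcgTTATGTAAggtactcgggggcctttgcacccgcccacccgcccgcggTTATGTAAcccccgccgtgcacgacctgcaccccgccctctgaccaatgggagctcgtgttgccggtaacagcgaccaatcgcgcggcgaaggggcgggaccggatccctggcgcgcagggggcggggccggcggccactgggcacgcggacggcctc
*Ciart* held 3 E-boxes, starting 116, 58 and 44 bases before the start, and *Per3* held 2 D-boxes, starting 205 and 158 bases before it. Of the 9 clock genes that rose, 6 had a promoter window in the table used. *Ciart* and *Tef* had an E-box and *Per3* a D-box there. Of all 14 clock genes opposite to *Arntl*, 11 had a window and 4 an E-box, among them *Per1* and *Bhlhe41*, which did not pass. An E-box was present in 6.02% and a D-box in 2.06% of all 32851 windows. These shares are per window, whereas the clock counts are per gene, with a gene counted if any of its windows matched. These matches describe the sequence alone.

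*Csad*, *Acmsd* and *Slc13a2* were among the largest falls and belonged to no list used here. *Csad*, the decarboxylase of taurine synthesis, ranged from 9.84 to 10.84 with a median of 10.46 on chow and from 7.48 to 9.52 with a median of 9.08 on the HFD (log2 difference -1.64 ± 0.38 SE, adjusted p = 0.0346), a call that was lost in 8 of the 12 fits that left out 1 array. *Acmsd*, which diverts tryptophan breakdown away from NAD synthesis, ranged from 8.14 to 8.61 on chow and from 6.81 to 7.57 on the HFD (-1.13 ± 0.23 SE, adjusted p = 0.0144). *Slc13a2*, a sodium-coupled carrier of citrate and succinate, ranged from 6.50 to 7.36 on chow and from 4.96 to 5.68 on the HFD, a 2.86-fold fall (-1.51 ± 0.16 SE, adjusted p = 1.07e-05). None of these overlapped. Of 31 genes of the urea cycle and amino acid catabolism 3 fell: *Cps1*, the entry enzyme of the urea cycle (-0.49 ± 0.12 SE), *Cth*, which makes cysteine (-0.48 ± 0.11 SE), and *Gnmt*, the glycine N-methyltransferase (-0.27 ± 0.07 SE). All 6 urea cycle genes stood below 0. These calls were near the threshold: none of *Cps1*, *Cth* and *Gnmt* passed in more than 2 of the 12 fits that left out 1 array. With each array centred on its median 1 member of the list passed, and after quantile normalization none did.

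Of 10 periportal genes 3 fell and 9 stood below 0 (median -0.21), and of 15 pericentral genes 1 fell and 12 stood above 0 (median 0.20). Over all genes, 62% stood above 0. *Etnppl*, a phosphoethanolamine lyase, ranged from 9.70 to 10.32 on chow and from 8.70 to 9.20 on the HFD (log2 difference -1.25 ± 0.27 SE, adjusted p = 0.0224), without overlap. *Cdh1*, which encodes E-cadherin, ranged from 8.89 to 9.41 on chow and from 7.44 to 9.02 on the HFD (-0.999 ± 0.24 SE, adjusted p = 0.0472), with overlap. The third periportal gene was *Cps1*. *Cdh1* lost its call in 10 of the 12 fits that left out 1 array and *Etnppl* in 4 (without HFD replicate 6 or chow replicates 1, 4 or 6). The pericentral fall was *Cyp27a1*, the sterol 27-hydroxylase of bile acid synthesis (-0.29 ± 0.07 SE), while the pericentral markers *Glul* and *Cyp2e1* differed by 0.26 and -0.03 and did not pass. *Cyp27a1* was also the only call among 16 genes of bile acid synthesis, and it was lost in 10 of the 12 fits.

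Further genes among the largest rises and falls belonged to no list used here. *Inhbe*, which encodes a subunit of the activins secreted by hepatocytes, ranged from 8.07 to 9.12 with a median of 8.75 on chow and from 9.89 to 10.95 with a median of 10.38 on the HFD, a 3.28-fold rise (log2 difference 1.71 ± 0.22 SE, adjusted p = 1.24e-04). *Rgs16*, which damps G protein signals, ranged from 6.62 to 8.74 on chow and from 8.77 to 10.71 on the HFD (2.22 ± 0.39 SE, adjusted p = 0.00438). *Stap1*, an adaptor protein, ranged from 4.35 to 4.997 on chow and from 5.70 to 7.26 on the HFD (1.96 ± 0.25 SE, adjusted p = 1.34e-04), with all chow values below 5, in the dim range, so that the size of the rise is uncertain. All 3 were without overlap. *Mtnr1a*, a melatonin receptor (1.15 ± 0.13 SE, adjusted p = 2.11e-05), *Acnat2*, an acyltransferase of peroxisomes (1.43 ± 0.23 SE), and the uncharacterized *9030619P08Rik* (1.98 ± 0.27 SE) rose likewise. Among the falls were *Adgrf1*, an adhesion G protein-coupled receptor, with a range of 7.14 to 8.52 on chow and of 5.12 to 6.63 on the HFD (-2.03 ± 0.27 SE, adjusted p = 1.45e-04), and the uncharacterized *Gm15998* (-1.15 ± 0.11 SE, adjusted p = 4.85e-06).

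Few inflammatory genes passed the test. Of 27 acute phase genes 2 rose. *Lcn2*, the lipocalin that binds bacterial iron carriers, ranged from 7.33 to 8.18 on chow and from 8.87 to 11.09 on the HFD (log2 difference 1.93 ± 0.39 SE, adjusted p = 0.0136). *Saa2*, a serum amyloid, ranged from 5.83 to 6.79 on chow and from 7.18 to 8.86 on the HFD (1.46 ± 0.29 SE, adjusted p = 0.0136). Both were without overlap, and the median of the list was 0.06; *Saa2* has a close relative, *Saa1*, with which probes may be shared. Of 31 cytokine, chemokine and NF-kB genes, *Ccl6* rose (0.62 ± 0.14 SE) and *Cxcl13*, which attracts B cells, fell (-1.16 ± 0.22 SE, adjusted p = 0.00934). None of 27 interferon-induced genes passed, and of 38 complement and coagulation genes only *C2* did (-0.53 ± 0.12 SE). *Ccl6* lost its call in 5 and *C2* in 6 of the 12 fits that left out 1 array.

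Markers of other liver cells gave no gene past the threshold beyond *Itgax*. The Kupffer cell list (14 genes, mean level 8.25 to 8.66 on chow and 8.59 to 8.86 on the HFD), the lymphocyte list (14 genes), the neutrophil list (9 genes), the sinusoidal endothelium list (15 genes), the stellate cell list (21 genes) and the cholangiocyte list (8 genes) had no member past the threshold. Of 11 markers of recruited macrophages, *Itgax*, which encodes CD11c, rose by 0.30 ± 0.07 SE from a chow mean near 5, where probe sets are dim, and lost its call in 11 of the 12 fits that left out 1 array. The part of cell composition in the other results was not tested.

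Growth and housekeeping lists moved by small amounts. Of 23 cell cycle genes *Ccnd1*, which encodes cyclin D1 (log2 difference 0.67 ± 0.16 SE, adjusted p = 0.0382), and *Rrm2*, a subunit of ribonucleotide reductase (0.57 ± 0.14 SE, adjusted p = 0.0382), rose, and 22 of the 23 stood above 0 with a median of 0.24. Both calls were lost without HFD replicate 5 or 6, among others. Of 43 ribosomal protein genes 42 stood below 0, with a median of -0.16, but only *Rpl10a* fell (-0.29 ± 0.06 SE, adjusted p = 0.0175), a call lost without HFD replicate 6 or chow replicate 4. In the 12 WT arrays alone 6 ribosomal protein genes fell, with the methods' t-test 7 and with array weights 5. No gene passed among 68 of oxidative phosphorylation (median 0.05), 23 of the TCA cycle (median 0.00), 27 of the unfolded protein response (median 0.04) or 31 of the proteasome (median 0.05). None of the 10 DNA glycosylases of base excision repair passed, and their differences ran from -0.04 to 0.21. *Ogg1* ranged from 6.26 to 6.55 on chow and from 6.34 to 6.57 on the HFD (-0.01 ± 0.07 SE, adjusted p = 0.950). *Neil1* (0.09 ± 0.09 SE) and *Nthl1* (0.03 ± 0.08 SE) did not pass either. By qPCR, in contrast, the paper reports higher *Ogg1*, *Neil1* and *Nth1* in WT livers on the HFD. An adjusted p that misses the threshold does not show that the diets gave equal levels.

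**Figure D4:**
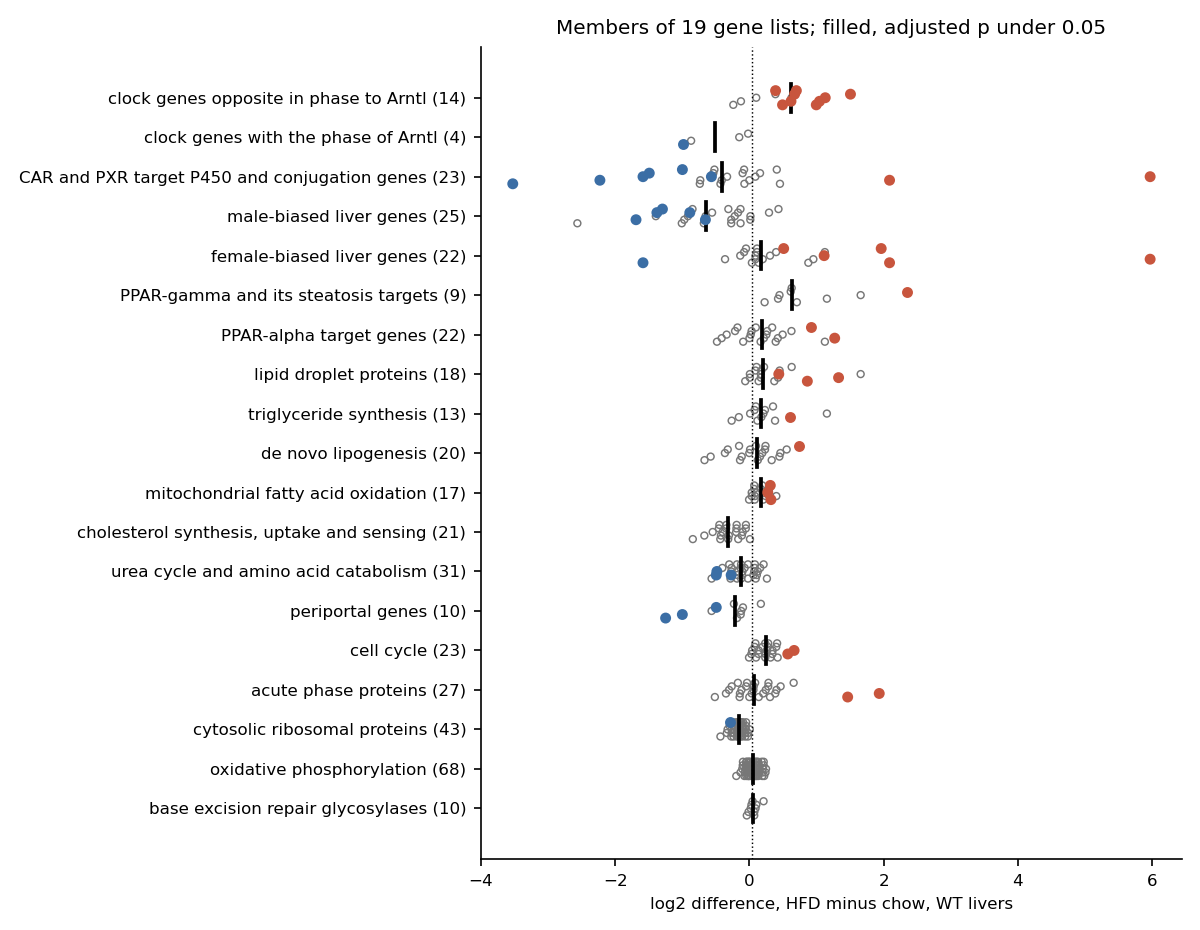
Log2 difference HFD minus chow in WT livers (x axis) for the members of 19 gene lists, with the number of measured members in parentheses. Filled points passed an adjusted p of 0.05 (red higher, blue lower), open points did not, black bars are list medians, and the dotted line is the median of all genes; the clock genes opposite to *Arntl* hold 9 filled points of 14.

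In several of these lists the HFD livers covered a wider range than the chow livers. The mean log2 level of the 21 cholesterol genes ranged from 10.42 to 10.96 over the chow livers and stood at 11.14, 9.29, 9.75, 11.21, 10.27 and 10.90 in HFD replicates 1 to 6. Replicates 2, 3 and 5 were therefore below every chow liver, with 2 and 3 lowest, and replicates 1 and 4 were above every one. The 20 lipogenic genes followed the same order at the low end, with 10.01 in replicate 2 and 10.46 in replicate 3 against 11.05 to 11.32 in the other HFD livers. Those 2 livers also had the highest level of the clock genes opposite to *Arntl*, 8.61 and 8.70, against 8.19 to 8.33 in the other HFD livers and 7.63 to 7.98 on chow.

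In the male-biased genes the order was another one. Their mean ranged from 10.08 to 10.34 on chow and stood at 10.10 and 9.91 in HFD replicates 2 and 3, at 9.69 and 9.48 in replicates 1 and 4, and at 9.04 and 8.97 in replicates 5 and 6. Replicate 2 lay within the chow range and replicates 5 and 6 lay lowest. Replicates 5 and 6 also had the highest cell cycle level, 6.32 and 6.55, against 5.85 to 5.97 on chow and 5.96 to 6.09 in the other HFD livers. They likewise had the highest female-biased level, 6.56 and 6.42, and the highest *Cidec*. The marker list of recruited macrophages stood at 6.53 and 6.64 in them, against at most 6.22 in the other HFD livers and 6.09 on chow, and that of stellate cells and fibroblasts at 7.95 and 8.05, against at most 7.84 and 7.82. The mice were all on the same diet for the same time, and the part of these cell type markers in the other values was not tested.

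**Figure D5:**
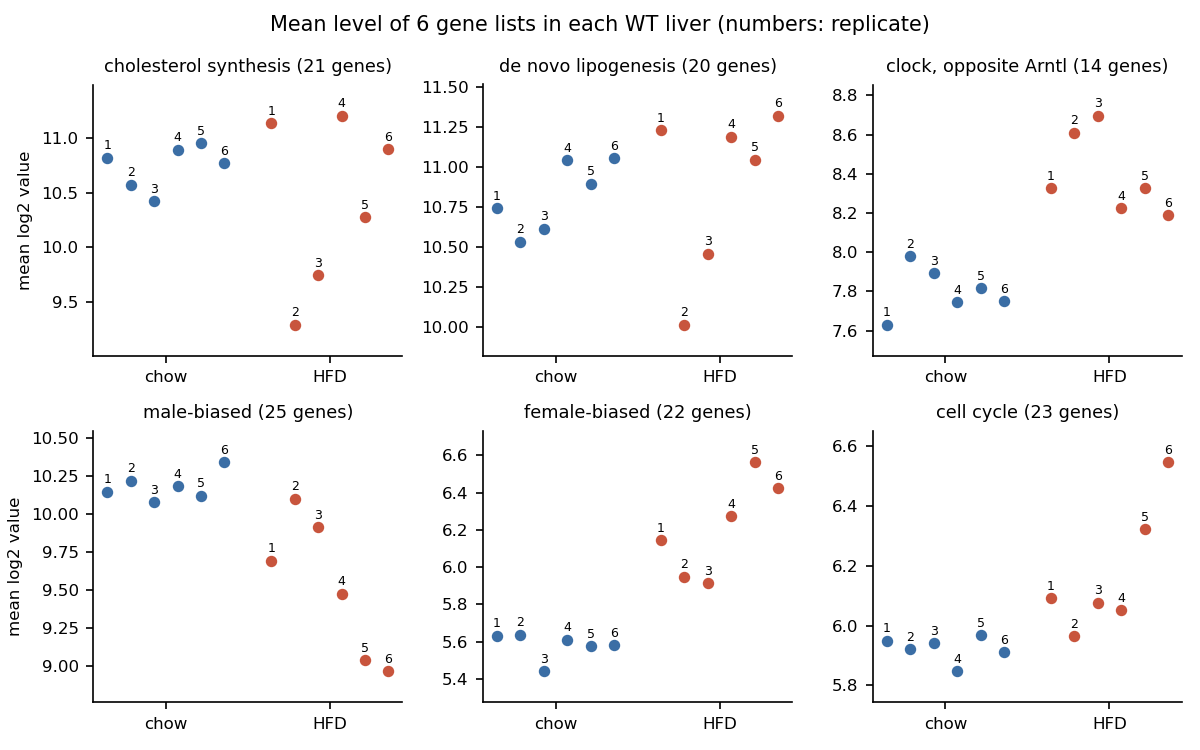
Mean log2 level (y axis) of 6 gene lists in each WT liver, chow in blue and HFD in red, with the replicate number above each point. HFD replicates 2 and 3 stand lowest for cholesterol synthesis and de novo lipogenesis and highest for the clock genes opposite to *Arntl*, and HFD replicates 5 and 6 stand lowest for male-biased genes and highest for cell cycle genes.

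The Ogg1-/- livers, whose group means share no array with those of WT, gave a second measurement of the diet difference. The tests in both genotypes used a spread estimated over all 24 arrays, so their calls were not independent. On the same criteria 1107 probe sets differed there between HFD and chow, 237 higher (0.667% of all) and 870 lower (2.45%). Of the 73 probe sets higher in WT 56 (76.7%) were also called higher in Ogg1-/- livers, and of the 64 lower in WT 34 (53.1%) were also called lower. In all, 90 probe sets were shared in the same direction, which is 65.7% of the WT calls and 8.13% of the Ogg1-/- calls, and none was called in opposite directions. *Fabp2* (1.69 ± 0.13 SE in Ogg1-/- livers), *Mfsd2a* (2.68 ± 0.39 SE), *Slc13a2* (-1.28 ± 0.16 SE), *Adgrf1* (-2.04 ± 0.27 SE) and *Cyp2c55* (-2.01 ± 0.27 SE) were called in both genotypes, in the same direction.

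The difference of the diet responses between the genotypes was tested for every probe set in the same limma fit. None of the 137 passed after adjustment (smallest adjusted p = 0.365). An unadjusted p under 0.05 was found for 35 of them, and for 2447 of all 35556 probe sets. The 137 were chosen for their WT difference, which is part of this contrast, so small unadjusted p-values were favored among them. *Cyp2b10* fell by 3.53 in WT and by 1.96 ± 0.26 SE in Ogg1-/- livers on the log2 scale (limma, unadjusted p for the difference = 2.43e-04). *Nat8*, an acetyltransferase, ranged from 9.68 to 9.97 on chow and from 8.57 to 9.30 on the HFD in WT (-1.01 ± 0.15 SE, adjusted p = 6.65e-04) but differed by -0.06 ± 0.15 SE in Ogg1-/- livers (unadjusted p for the difference = 1.39e-04). *Arntl* differed by -0.21 in Ogg1-/- livers (adjusted p = 0.483; unadjusted p for the difference = 0.00462), and *Dbp* by 0.41 (adjusted p = 0.109). *Chka*, a choline kinase, fell by 0.61 in WT and differed by 0.01 in Ogg1-/- livers. *Cyp2b13*, dim on chow, differed by 4.42 in Ogg1-/- livers and by 2.09 in WT (unadjusted p for the difference = 0.00231). None of these differences between genotypes held after adjustment over all probe sets. The label ending nearly followed diet in WT but was the same on both diets in Ogg1-/- livers. It therefore enters this contrast, and its part cannot be told apart from that of genotype.

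Regulators of fat oxidation that were also assayed by qPCR in this series did not pass in the WT diet comparison. *Ppara*, which encodes PPAR-alpha, ranged from 10.07 to 10.40 on chow and from 10.45 to 10.91 on the HFD, without overlap (log2 difference 0.42 ± 0.13 SE, adjusted p = 0.135). *Cpt1a*, which encodes the carnitine palmitoyltransferase that admits fatty acids to mitochondria, differed by 0.40 ± 0.12 SE (adjusted p = 0.129). For *Cpt-1*, with the isoform not named, the paper reports by qPCR a significant rise on the HFD in WT mice. The coactivators *Ppargc1a* and *Ppargc1b* differed by -0.41 ± 0.18 SE (adjusted p = 0.322) and 0.03 ± 0.09 SE (adjusted p = 0.904). A dimmer *Ppargc1a* probe set gave a larger difference of -0.67 ± 0.20 SE, which did not pass either (adjusted p = 0.135 in the same fit).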

How the data were processed

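Total RNA from 24 mouse livers was hybridized to Affymetrix Mouse Gene ST arrays, 1 array per mouse and 6 per group. The authors deposited RMA values on the log2 scale (background-corrected, quantile-normalized and summarized per probe set), which were used as given; the methods name the Affymetrix Expression Console for array processing and, for the study's own tests, GC-RMA in GeneSifter, whereas the submitters' notes name RMA, and the program version behind the deposited values was not given in the sources used here. No counts exist for arrays, so the number of arrays limits the precision. Probe sets were named from the platform annotation where it gave a single symbol (21789; 1621 had several and 12146 none), with symbols updated through Entrez identifiers for 21698, and for each gene the brightest of its probe sets (by mean over the 24 arrays) was used.

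Groups were taken from the sample labels. A linear model with a mean per group was fitted to all 24 arrays with limma 3.58.1 (lmFit, eBayes) in R 4.3.3, which shares the estimate of the spread over the 4 groups, and HFD was contrasted with chow within WT; p-values were adjusted by Benjamini-Hochberg over 35556 probe sets. A probe set was called at an adjusted p under 0.05 and at least 1.5-fold; members of gene lists were counted at an adjusted p under 0.05 alone. Errors are standard errors of this fit, and groups are given by their lowest, median and highest value. The fit was tested on simulated data with known changes. Named genes were the 15 largest rises and 15 largest falls among called genes without overlap, from each list up to 4 members past the threshold with the largest differences (or, where none passed, the member with the smallest p), and some of the genes the study assayed by qPCR (*Ogg1*, *Neil1*, *Nthl1*, *Srebf1*, *Acaca*, *Fasn*, *Scd1*, *Ppargc1a*, *Ppargc1b*, *Cpt1a* and *Ppara*), 98 genes in all; a further 10 list members past the threshold, among them *Per2*, *Per3*, *Hlf*, *Tef*, *Cyp3a11* and *Gpc1*, and *Sqle*, *Cidec*, *Mogat1* and *Hsd3b5*, among others, were named after their values were seen. The members, the 55 gene lists (994 genes measured) and the tests were chosen with earlier results of these data known. Promoter sequences were from RefSeq on GRCm38.p6. Alternatives are listed with their effect in the closing section. Symbols without a single-symbol probe set were not analysed here.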

Additional observations from a re-analysis of the deposited data

Results flagged for a closer look

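In 11 of the 146 groups examined (6 mice of 1 diet, for 73 named genes), the highest or lowest mouse stood apart from the other 5 by more than the 95% critical value of Dixon's test; chance alone gives about 1 in 20 groups, and here it was 7.53%. Chow replicate 1 was low for *Mfsd2a* (7.18, nearest mouse 8.86) and *Mtnr1a* (6.33, nearest 6.87). Chow replicate 5 was low for *Etnppl* (9.70, nearest 10.16) and *Cyp3a11* (13.15, nearest 13.54). Chow replicate 4 was high for *Acmsd* (8.61, nearest 8.29) and *C2* (9.84, nearest 9.60), and chow replicate 2 was low for *Cyp27a1* (12.96, nearest 13.03). HFD replicate 5 was low for *Cyp4a12a* (10.31, nearest 11.40) and high for *Mgll* (11.40, nearest 10.98) and *Bdh1* (11.64, nearest 11.37). HFD replicate 3 was high for *Cth* (12.86, nearest 12.51).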

How the results depend on the processing

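None of the 73 named genes past the threshold changed sign under the alternatives run. The balance of higher to lower calls did turn, from 73 and 64 to 67 and 99 in the 12 WT arrays alone, 91 and 119 with array weights and 34 and 38 with the methods' t-test, and the median of the cholesterol genes went from -0.32 to 0.11 with HFD replicates 2 and 3 left out. The 137 called probe sets became 210 with array weights, 72 with the methods' t-test, 67 with the label ending as a covariate (37 of them among the 137), a fit that sets HFD replicate 5 alone against chow, 329 with no fold threshold, 321 at 1.2-fold and 59 at 2-fold. The number higher became 34 with the methods' t-test and 116 with HFD replicates 2 and 3 left out together, an alternative chosen after seeing the data. The number lower became 99 in the 12 WT arrays alone, 119 with array weights, 38 with the methods' t-test and 10 with the ending. In place of 60 list members past the threshold, 116 passed with array weights and 18 with the ending, and the 90 probe sets shared with Ogg1-/- livers became 42 with the ending. Leaving out 1 array at a time gave 85 to 172 called probe sets, 48 to 95 higher and 34 to 77 lower, 60 to 112 shared with Ogg1-/- livers, and 29 to 65 list members. Replicate numbers are shared by the groups, but same-numbered arrays deviated together by correlations of only -0.05 to 0.22, over 0.1 for 2 of the 6 numbers, and 1 number correlated best with its own, so the numbers were not taken to pair mice; with the replicate block 120 probe sets were called. Of 73 named genes past the threshold, 18 kept their call under every alternative listed beforehand and 30 did with the ending fit set aside; 51 lost it with the ending, where the HFD side is 1 array, and 32 with the methods' t-test. The causes of these shifts were not tested. The number of arrays limits the precision, and differences of dim probe sets (a log2 value under 5) have an uncertain size.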
